A study of Mus musculus with 12 samples.

Results

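The Wnt signalling genes described here are the secreted Wnt ligands, their Frizzled and Lrp receptors, the secreted proteins that block or amplify them, and 3 nuclear factors or targets. They were taken from the gene-level count table of cultured mouse embryonic fibroblasts by name: every gene whose Entrez identifier maps to a Wnt, Fzd, Sfrp1 to Sfrp5, Dkk1 to Dkk4 or Rspo1 to Rspo4 symbol, plus Frzb, Wif1, Axin2, Lrp5, Lrp6, Lef1, Tcf7 and Notum. The rule used names and no measured value, and it found 49 genes among 27179 in the table. They comprise 19 ligands, 12 receptors, 11 secreted inhibitors, 4 R-spondins and 3 nuclear factors or targets.

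The fibroblasts came from wild-type C57BL/6 embryos at embryonic day 13.5 and were grown in 3% oxygen. All cultures received a compound at 10 µM: WM-8014, labelled an inhibitor of the MYST family of histone acetyltransferases, or WM-2474, labelled its inactive control. The 4 groups were WM-8014 for 240 h, WM-2474 for 240 h, WM-8014 for 96 h and WM-2474 for 96 h, each with 3 libraries from cultures numbered 5, 6 and 7. The submitters call the cultures biological replicates; the labels do not say how many embryos each came from. No untreated culture is among these samples, so every compound effect is WM-8014 relative to WM-2474 at the same dose and time.

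Wnt proteins are lipid-modified signals that act on cells nearby. A Wnt that binds a Frizzled receptor together with Lrp5 or Lrp6 stabilises beta-catenin, which then works with Lef and Tcf factors to switch on target genes, among them the feedback inhibitors Axin2 and Notum. Other Wnts, of which Wnt5a is the best known in fibroblasts, act mainly through Frizzled and Ror receptors without beta-catenin. Secreted Frizzled-related proteins (the Sfrp genes and Frzb) bind Wnts outside the cell, Dkk1, Dkk2 and Dkk4 act on Lrp5 and Lrp6, and R-spondins amplify the signal by keeping Frizzled receptors at the cell surface.

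The libraries held between 10147466 and 45903190 counted reads. All 10 fibroblast markers were detected, with a summed level of 53000 to 54100 CPM (here read counts over the TMM-scaled library size) in WM-8014 cultures and 49700 to 52100 CPM in WM-2474 cultures at 240 h, and of 32700 to 37000 CPM and 30300 to 34000 CPM at 96 h. That sum was carried by Col1a1, Fn1 and Col1a2, and of the 10 markers 2 were higher and 2 lower with WM-8014 at 240 h by the test used below (2 to 3 lower when 1 library was left out). Lum was at 1.73 to 5.48 CPM with WM-8014 and 9.16 to 24.4 CPM with WM-2474 at that time, and Pdgfra at 150 to 154 CPM and 193 to 220 CPM. Fn1 went the other way, at 14200 to 15100 CPM with WM-8014 and 11200 to 12800 CPM with WM-2474 at 240 h. At 96 h, 2 of the 10 markers were higher and 0 lower with WM-8014 (0 to 3 higher when 1 library was left out). The defining markers Ptprc, Adgre1, Pecam1, Cdh5, Epcam, Cdh1, Myod1, Myog and Adipoq were each under 1 CPM in every library. The macrophage list, 4 of whose 6 genes were under 1 CPM, summed to 7.21 to 9.89 CPM with WM-8014 and 4.26 to 5.51 CPM with WM-2474 at 240 h, and to 6.55 to 8.66 CPM and 4.99 to 6.22 CPM at 96 h. The skeletal muscle list, of which 5 of 6 genes were under 1 CPM and Acta1 carried nearly all reads, summed to 416 to 628 CPM with WM-8014 and 227 to 317 CPM with WM-2474 at 240 h. The adipocyte list, 2 of 4 genes under 1 CPM, summed to 7.56 to 9.58 CPM and 3.69 to 4.31 CPM at that time, and to 11.8 to 13.9 CPM and 8.67 to 10.2 CPM at 96 h. The neural list had 0 higher and 3 lower of 5 genes at 240 h (2 to 4 lower when 1 library was left out), with a median log2 fold change of -1.16. Its Sox10 was at 0.706 to 1.21 CPM with WM-8014 and 2.04 to 2.58 CPM with WM-2474, and Tubb3, which carried most of the list's reads, averaged 58.1 CPM and 63.1 CPM. At 96 h 1 endothelial marker, Kdr, was at 1.09 to 1.76 CPM with WM-8014 and 1.81 to 2.89 CPM with WM-2474, and 1 epithelial marker, Krt18, at 0.812 to 0.818 CPM and 1.30 to 2.51 CPM. At 240 h Kdr was at 0.693 to 0.83 CPM and 1.07 to 1.58 CPM in the same order, and Krt18 at 0.484 to 0.807 CPM and 0.711 to 0.858 CPM. The cartilage and bone list summed to 84.9 to 125 CPM with WM-8014 and 87.9 to 130 CPM with WM-2474 at 240 h, and to 115 to 187 CPM and 122 to 201 CPM at 96 h, Col2a1 running between 45.8 and 161 CPM over the 12 libraries. Of its 3 measured genes, 1 was higher and 0 lower with WM-8014 at 96 h (0 to 1 higher when 1 library was left out). Mki67, a marker of dividing cells, was at 54.1 to 62.2 CPM with WM-8014 and 161 to 176 CPM with WM-2474 at 240 h, and at 184 to 204 CPM and 243 to 267 CPM at 96 h. These differences move with the compound, and their part in the Wnt gene results was not tested; in such bulk RNA, fewer cells of a type and less RNA per cell cannot be told apart. The cultures are labelled female, yet the Y-linked gene Ddx3y was at 96.3 to 124 CPM in all 12 libraries and Xist had at most 4 reads. Cultures 6 and 7 of the 96 h WM-2474 group stood apart from the other 10 libraries in Misp3, at 0.724 and 0.943 CPM against 79.9 to 285 CPM elsewhere. How far they differed in other genes is not given here. Results that use that group are therefore also given without both. Misp3, Ddx3y, Xist, Mki67 and the single markers whose ranges are given were chosen after their values were seen.

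Of the 49 genes, 33 passed the filter on low counts and 16 were too low to measure. Sfrp5 and Wnt3a had 0 reads in all 12 libraries, which allows at most 0.296 CPM in the shallowest library and 0.0654 CPM in the deepest (3 reads; counting error only). Dkk4, Rspo4, Wnt3, Wnt8b and Wnt9b had 2 reads each over all libraries, Wnt7a had 4, Wnt1 had 6, Wnt8a had 10 and Wnt7b had 28. Fzd10 had 49 reads, Wif1 had 75, Wnt6 had 89, Fzd9 had 99 and Dkk1 had 104, and none of the 16 exceeded 0.881 CPM in any library. The unmeasured genes were thus 9 of 19 ligands, 2 of 12 receptors, 4 of 11 secreted inhibitors and 1 of 4 R-spondins.

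A few genes carried most of the Wnt pathway RNA when levels were set per kilobase of gene length. Wnt5a held 54.0% ± 0.45 (SD, n = 3) of the summed Wnt ligand level with WM-8014 and 60.1% ± 1.9 with WM-2474 at 240 h, and 54.4% ± 1.6 and 55.4% ± 1.5 at 96 h. Fzd1, Fzd2 and Fzd7 together held between 85.9% (WM-2474, 240 h) and 88.4% (WM-8014, 240 h) of the Frizzled level in the group means. Dkk2, Dkk3 and Sfrp1 held 96.2% ± 0.33 of the secreted inhibitor level with WM-8014 and 92.8% ± 0.37 with WM-2474 at 240 h, and 91.4% ± 0.98 and 88.6% ± 1.7 at 96 h. Averaged over all libraries, Dkk3 stood highest at 72.9 CPM per kilobase, followed by Fzd2 at 62.3, Fzd7 at 43.7, Dkk2 at 40.3, Fzd1 at 36.3, Wnt5a at 34.9, Sfrp1 at 33.3, Lrp5 at 21.3 and Lrp6 at 16.5 CPM per kilobase. The order below Fzd2 differed between groups: Wnt5a averaged 31.4 CPM per kilobase with WM-8014 and 45.0 with WM-2474 at 240 h, beside 57.9 and 44.9 for Fzd7 and 36.8 and 27.8 for Fzd1. The nuclear factor Lef1 and the R-spondin Rspo1 were among the lowest of the 33, at up to 1.21 and 1.30 CPM in any library.

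**Figure D1:**
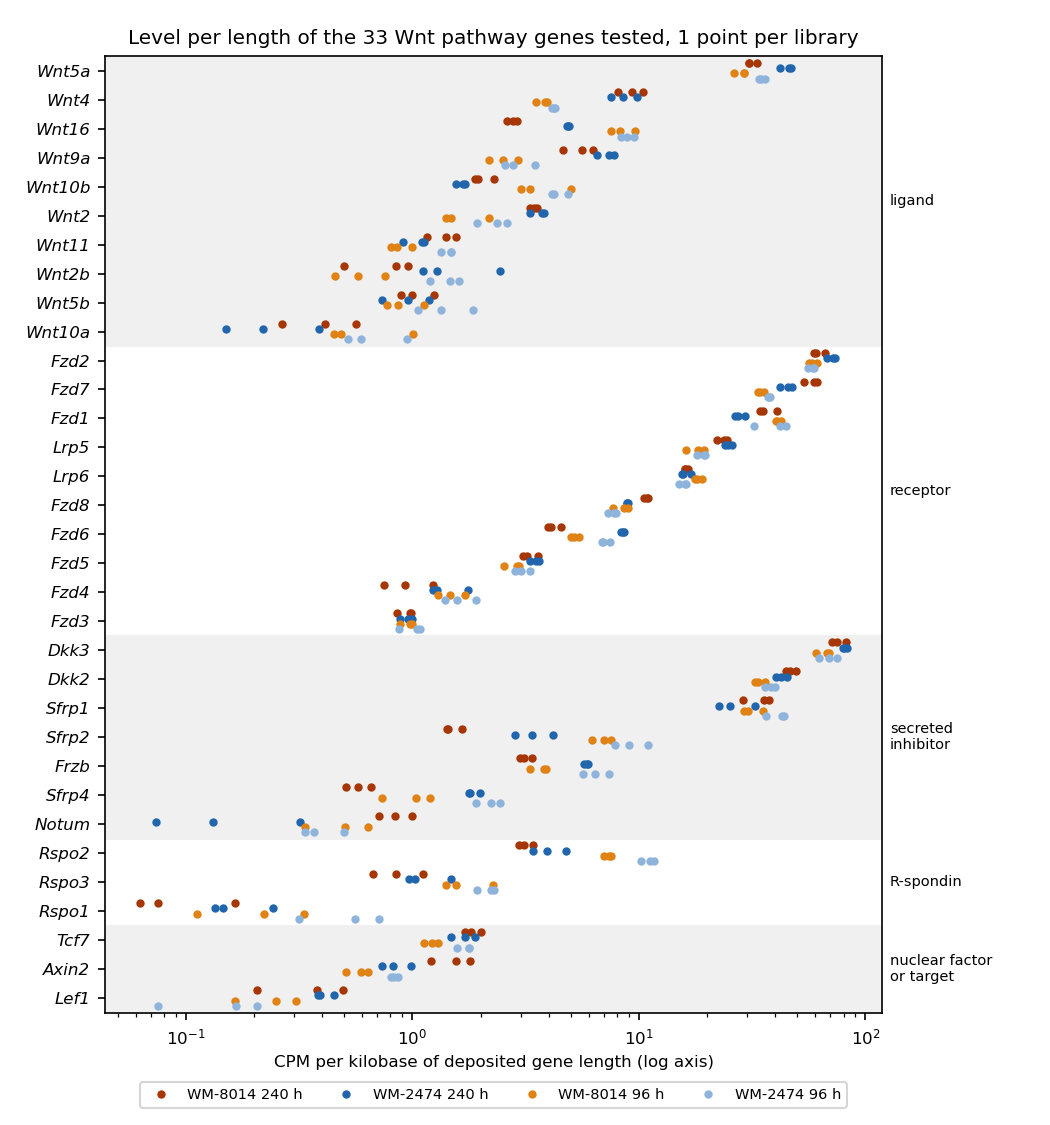
Level of each of the 33 measurable Wnt pathway genes in each of the 12 libraries, in CPM per kilobase on a log axis, grouped by role; each point is 1 library and colours mark the 4 groups. Dkk3, Fzd2 and Fzd7 lie farthest to the right, and Rspo1, Lef1 and Notum lie to the left.

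Genes were called where the adjusted p of edgeR's quasi-likelihood test, with Benjamini-Hochberg adjustment over all 14136 genes tested, was under 0.05. At 240 h, 17 of the 33 genes were called, 6 higher and 11 lower with WM-8014. The background was 42.6% of all genes called, 21.2% higher and 21.4% lower, so the share called (51.5%) was near it. At 96 h, 14 were called, 1 higher and 13 lower, against a background of 22.8% called, 10.9% higher and 11.8% lower. The lowest and highest libraries of the compound groups did not overlap for 17 genes at 240 h (51.8% of all genes) and for 14 at 96 h (38.1% of all genes). The median log2 fold change was -0.07 at 240 h and -0.20 at 96 h over the 33 genes, beside 0.01 and 0.00 over all genes.

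Read across both times, 7 genes were lower with WM-8014 at 240 h and at 96 h: the ligands Wnt2b and Wnt5a, the receptor Fzd6, the inhibitors Frzb, Sfrp2 and Sfrp4, and the R-spondin Rspo2. Of all genes tested, 8.91% were lower at both times. Axin2 and Dkk2 were higher at 240 h and lower at 96 h, as were 0.311% of all genes. A further 8 genes were called at 240 h but not at 96 h (Fzd1, Fzd7, Fzd8 and Notum higher; Fzd2, Fzd4, Wnt9a and Wnt16 lower), and 5 at 96 h but not at 240 h (Lrp6 higher; Rspo1, Tcf7, Wnt2 and Wnt11 lower). Such a difference in call is no test of a difference in effect, which is given with the compound by time interaction. The count at 96 h rested on single libraries more than that at 240 h. It was 9 without WM-2474 culture 5, 7 without WM-2474 culture 7, 9 without WM-8014 culture 6 and 8 without WM-8014 culture 7, all of 96 h. Without cultures 6 and 7 of the 96 h WM-2474 group together it was 7 (Fzd1 and Lrp6 higher; Frzb, Fzd6, Rspo2, Sfrp2 and Wnt5a lower), the lone remaining library being assumed to vary like the other groups.

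**Figure D2:**
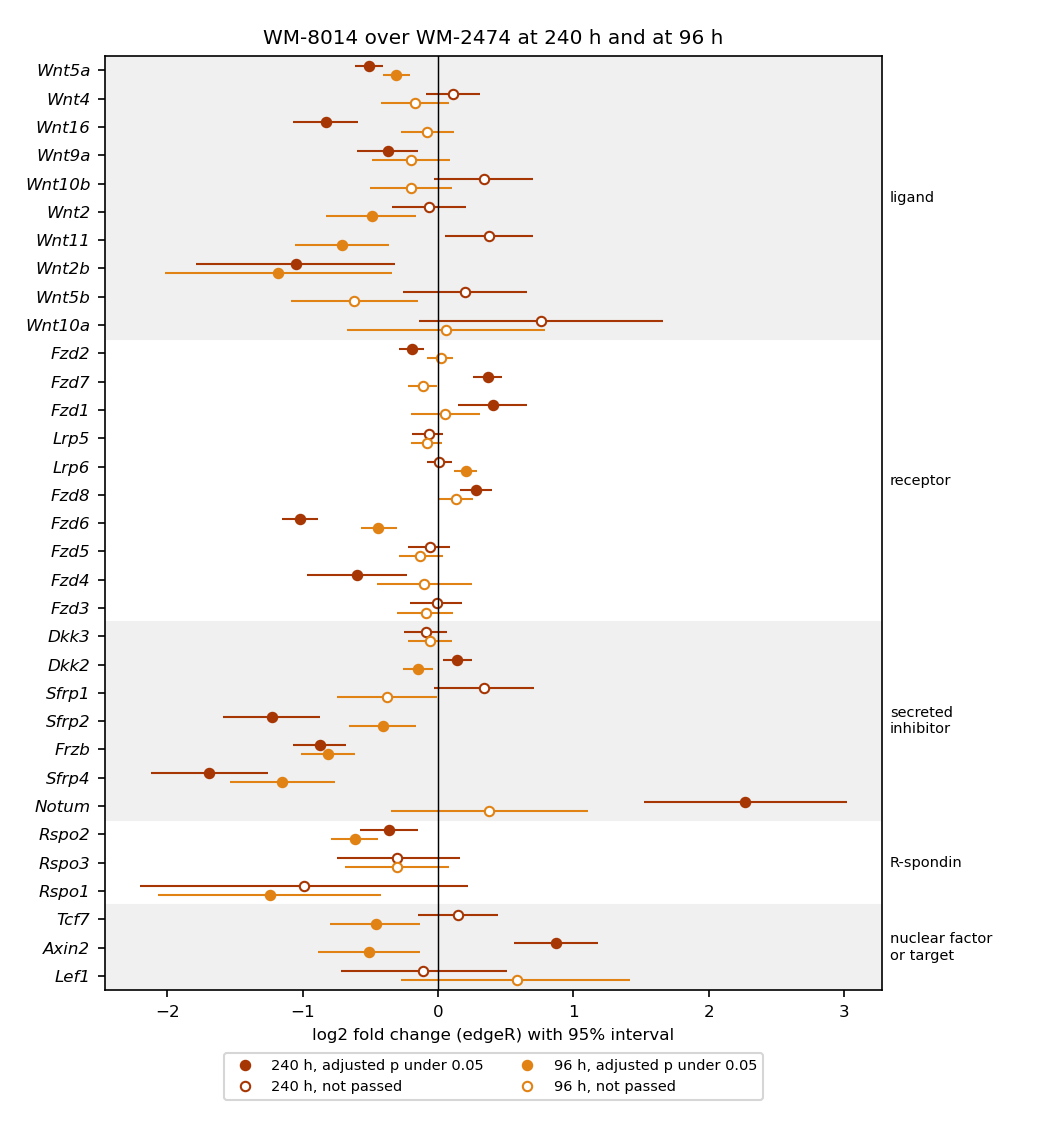
Log2 fold change of WM-8014 over WM-2474 for each of the 33 genes, at 240 h and at 96 h, with 95% intervals from edgeR; filled points passed an adjusted p of 0.05. Most filled 96 h points lie left of 0, whereas filled 240 h points lie on both sides, with Notum farthest right and Sfrp4 farthest left.

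Among the 10 ligands measured, 4 were lower and 0 higher with WM-8014 at 240 h, and 4 were lower and 0 higher at 96 h. The shares of all genes called, 42.6% at 240 h and 22.8% at 96 h, are the background for these and the later counts by role, and the ligand share at 240 h (40.0%) was near it. Wnt5a, the most abundant ligand, had 133, 145 and 134 CPM in WM-8014 cultures at 240 h, against 184, 201 and 206 CPM in WM-2474 cultures. At 96 h it had 128, 115 and 127 CPM with WM-8014, against 151, 148 and 158 CPM with WM-2474. Every WM-8014 library lay below every WM-2474 library at both times, and the log2 fold changes were -0.51 (SE 0.048, adjusted p = 3.24e-08) at 240 h and -0.31 ± 0.049 (± SE throughout for fold changes; adjusted p = 0.000161) at 96 h. Both calls held under every alternative tried.

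Wnt16, a ligand best known from bone and joints, differed at the later time. It had 4.64, 4.36 and 4.79 CPM with WM-8014 at 240 h, against 8.2, 8.0 and 8.07 CPM with WM-2474, groups that did not overlap (log2 fold change -0.83 ± 0.12, adjusted p = 5.62e-06). After 96 h it had 13.7, 12.5 and 16.0 CPM with WM-8014, against 13.8, 15.9 and 14.8 CPM with WM-2474, and these overlapped (log2 fold change -0.08, 95% interval -0.27 to 0.12, adjusted p = 0.604). Wnt9a, a ligand with roles in joint formation, had 15.3, 18.6 and 20.7 CPM with WM-8014 at 240 h, against 24.4, 25.7 and 21.7 CPM with WM-2474. The 2 groups did not overlap (log2 fold change -0.37 ± 0.11, adjusted p = 0.00892). At 96 h Wnt9a had 8.35, 7.23 and 9.67 CPM with WM-8014, against 8.54, 11.6 and 9.18 CPM with WM-2474, and it did not pass (log2 fold change -0.20, 95% interval -0.49 to 0.09, adjusted p = 0.335).

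Wnt2b, a ligand that acts through beta-catenin, had 3.03, 3.42 and 1.79 CPM with WM-8014 at 240 h, against 3.97, 8.67 and 4.60 CPM with WM-2474. At 96 h it had 2.72, 2.05 and 1.62 CPM with WM-8014, against 5.76, 5.21 and 4.24 CPM with WM-2474. The groups did not overlap at either time, and the log2 fold change was -1.05 ± 0.33 (adjusted p = 0.0257) at 240 h and -1.18 ± 0.38 (adjusted p = 0.0468) at 96 h. The call at 240 h was lost without WM-8014 240 h culture 5 or culture 7 (log2 fold change -1.08 to -0.82, adjusted p 0.0515 to 0.0795). That at 96 h was lost without any 1 of the 6 libraries of 96 h or without WM-8014 240 h culture 5 (-1.39 to -1.02, adjusted p 0.0669 to 0.144). Over the 20 recomputations of each, the adjusted p ran between 0.000483 and 0.0809 at 240 h and between 0.000312 and 0.211 at 96 h. Wnt2b overlaps the more highly counted gene St7l, and the strand setting of the counting is not given in the sources used here.

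Wnt11, a ligand known mainly for signalling without beta-catenin, had 4.34, 3.91 and 3.23 CPM with WM-8014 at 240 h, against 3.16, 2.53 and 3.07 CPM with WM-2474. The 96 h libraries held 2.38, 2.25 and 2.77 CPM with WM-8014, against 3.71, 4.12 and 4.14 CPM with WM-2474. The WM-8014 libraries were thus the higher ones at 240 h and the lower ones at 96 h, with no overlap at either time. The log2 fold change was 0.38 ± 0.16 (adjusted p = 0.0584) at 240 h, which did not pass, and -0.71 ± 0.17 (adjusted p = 0.00399) at 96 h. The 96 h call was lost without cultures 6 and 7 of the 96 h WM-2474 group together (log2 fold change -0.59, adjusted p = 0.239; range over the alternatives 0.00244 to 0.239). Without WM-8014 240 h culture 7, the 240 h difference passed (log2 fold change 0.48, adjusted p = 0.0286; range 0.0286 to 0.614).

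Wnt2, which acts through beta-catenin in the developing lung, had 4.62, 3.14 and 2.98 CPM with WM-8014 at 96 h, against 5.01, 4.05 and 5.51 CPM with WM-2474. The groups overlapped and the log2 fold change was -0.49 ± 0.16 (adjusted p = 0.032). This call was lost without WM-8014 96 h culture 6 or 7, or WM-2474 96 h culture 5 or 7 (log2 fold change -0.49 to -0.33, adjusted p 0.051 to 0.291; range over the alternatives 0.00635 to 0.291). At 240 h Wnt2 had 6.96, 7.5 and 7.27 CPM with WM-8014, against 8.04, 7.03 and 7.92 CPM with WM-2474 (log2 fold change -0.07, 95% interval -0.34 to 0.21). Wnt5b, a close relative of Wnt5a, narrowly failed at 96 h with a log2 fold change of -0.62 ± 0.23 (adjusted p = 0.0518) and overlapping groups. It passed with culture as a block (log2 fold change -0.67, adjusted p = 0.0186; range over the alternatives 0.0186 to 0.806). It also passed without WM-2474 96 h culture 5, WM-2474 240 h culture 5 or 7, WM-8014 96 h culture 5 or WM-8014 240 h culture 6 (-0.79 to -0.62, adjusted p 0.0326 to 0.0475), and was -0.21 without cultures 6 and 7 of the 96 h WM-2474 group together. It overlaps Fbxl14, which had more reads. The remaining ligands, Wnt4, Wnt10a and Wnt10b, were called at neither time, with log2 fold changes of 0.11, 0.76 and 0.34 at 240 h and -0.17, 0.06 and -0.20 at 96 h. Their 95% intervals at 240 h were -0.09 to 0.31 for Wnt4, -0.14 to 1.66 for Wnt10a and -0.03 to 0.70 for Wnt10b. Without WM-8014 96 h culture 6, Wnt10b passed at 96 h (log2 fold change -0.46, adjusted p = 0.017; range over the alternatives 0.017 to 0.838).

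Of the 10 receptors measured, 3 were higher and 3 lower with WM-8014 at 240 h, and 1 was higher and 1 lower at 96 h, beside 42.6% and 22.8% of all genes called. Fzd6, a Frizzled of the planar polarity branch that has also been described as an inhibitor of beta-catenin signalling, had 16.9, 16.4 and 18.8 CPM with WM-8014 at 240 h, against 34.6, 35 and 35.7 CPM with WM-2474. At 96 h it had 22.5, 21.3 and 20.8 CPM with WM-8014, against 30.8, 28.8 and 28.5 CPM with WM-2474. The groups were separate at both times, and the gap was wider at 240 h. Fzd6 had the smallest adjusted p of all 33 genes at 240 h, with a log2 fold change of -1.02 ± 0.064 (adjusted p = 6.16e-11), and -0.44 ± 0.065 (adjusted p = 6.2e-05) at 96 h.

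The 3 most abundant Frizzled receptors did not move together at 240 h. Fzd7 had 284, 295 and 256 CPM with WM-8014, against 202, 218 and 229 CPM with WM-2474, and all WM-8014 libraries were the higher ones (log2 fold change 0.37 ± 0.048, adjusted p = 5.44e-06). Fzd1 had 150, 155 and 178 CPM with WM-8014, against 129, 116 and 120 CPM with WM-2474, also without overlap (0.41 ± 0.11, adjusted p = 0.0174). Fzd2 had 219, 215 and 241 CPM with WM-8014, against 260, 245 and 267 CPM with WM-2474, the WM-8014 libraries being the lower ones (-0.19 ± 0.045, adjusted p = 0.00137). Without WM-2474 240 h culture 6 or 7, or WM-8014 240 h culture 7, the Fzd1 call was lost (log2 fold change 0.33 to 0.40, adjusted p 0.0535 to 0.0603; range over the alternatives 2.46e-05 to 0.0603). None of the 3 passed at 96 h. Fzd7 had 165, 172 and 162 CPM with WM-8014 at 96 h, against 180, 179 and 181 CPM with WM-2474, which did not overlap (log2 fold change -0.11, 95% interval -0.22 to -0.01, adjusted p = 0.113). Without WM-8014 240 h culture 7 it passed (-0.11, adjusted p = 0.0496; range over the alternatives 0.0313 to 0.467). Fzd1 had 177, 178 and 186 CPM with WM-8014 at that time, against 141, 195 and 183 CPM with WM-2474. Its log2 fold change at 96 h was 0.05 (adjusted p = 0.785), but 0.36 without cultures 6 and 7 of the 96 h WM-2474 group together, where it passed (adjusted p = 0.0221; range over the alternatives 0.0221 to 0.913). Fzd2 had 222, 211 and 205 CPM with WM-8014 at 96 h, against 201, 215 and 213 CPM with WM-2474 (log2 fold change 0.02, 95% interval -0.08 to 0.11).

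Fzd8 and Fzd4 were called at 240 h in opposite directions. Fzd8 had 36.3, 35.1 and 36.9 CPM with WM-8014, against 29.6, 29.9 and 29.7 CPM with WM-2474, with no overlap (log2 fold change 0.28 ± 0.058, adjusted p = 0.00055). Fzd4, which also serves as the receptor of the non-Wnt ligand norrin in blood vessels of the eye, had 4.54, 3.42 and 2.77 CPM with WM-8014, against 6.49, 4.54 and 4.75 CPM with WM-2474. Its groups met at 4.54 CPM to 3 digits, and the log2 fold change was -0.60 ± 0.18 (adjusted p = 0.00968). Leaving out WM-8014 240 h culture 7 or WM-2474 240 h culture 5 ended the Fzd4 call (log2 fold change -0.47 to -0.44, adjusted p 0.0559 to 0.0608; range over the alternatives 0.00198 to 0.0608). Fzd4 overlaps Tmem135, which had more reads. At 96 h Fzd8 had 28.7, 30.0 and 25.8 CPM with WM-8014, against 24.4, 26.5 and 26.0 CPM with WM-2474, and Fzd4 had 6.32, 5.39 and 4.80 CPM, against 7.06, 5.14 and 5.80 CPM. The groups overlapped for both genes and neither passed, with log2 fold changes of 0.13 (95% interval 0.00 to 0.26) for Fzd8 and -0.10 (95% interval -0.45 to 0.25) for Fzd4. Without WM-8014 96 h culture 7, Fzd8 passed there (0.19, adjusted p = 0.0421; range over the alternatives 0.0421 to 0.555).

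The co-receptor Lrp6 was the only gene of the 33 called higher at 96 h. It had 169, 165 and 177 CPM with WM-8014, against 141, 152 and 150 CPM with WM-2474, and the groups did not overlap (log2 fold change 0.21 ± 0.042, adjusted p = 0.00112). At 240 h it had 150, 150 and 153 CPM with WM-8014, against 159, 145 and 146 CPM with WM-2474 (log2 fold change 0.01, 95% interval -0.08 to 0.10). Its partner Lrp5 was called at neither time, with 95% intervals of -0.19 to 0.04 at 240 h and -0.20 to 0.03 at 96 h. Fzd3 and Fzd5 were called at neither time either, and their log2 fold changes lay between -0.13 and -0.01.

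Of the 7 secreted inhibitors measured, 2 were higher and 3 lower with WM-8014 at 240 h, and 4 were lower at 96 h, which is 71.4% and 57.1% called beside the same background. The Frizzled-related proteins Sfrp2, Sfrp4 and Frzb were the 3 lower ones at both times. Sfrp4 had 1.01, 0.899 and 1.15 CPM with WM-8014 at 240 h, against 3.48, 3.16 and 3.12 CPM with WM-2474. With 96 h of treatment it had 2.11, 1.30 and 1.83 CPM with WM-8014, against 3.34, 4.27 and 3.91 CPM with WM-2474. No WM-8014 library reached the lowest WM-2474 library at either time, and the log2 fold change was -1.69 ± 0.21 (adjusted p = 1.04e-06) at 240 h and -1.15 ± 0.19 (adjusted p = 0.000183) at 96 h. The call at 96 h was lost without cultures 6 and 7 of the 96 h WM-2474 group together (-0.94, adjusted p = 0.0804; range over the alternatives 9.47e-06 to 0.0804).

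Sfrp2 had 3.33, 2.84 and 2.89 CPM with WM-8014 at 240 h, against 8.36, 6.76 and 5.69 CPM with WM-2474. At 96 h it had 15.0, 12.4 and 14.1 CPM with WM-8014, against 22.1, 15.7 and 18 CPM with WM-2474. The groups were apart at both times, the log2 fold change being -1.23 ± 0.17 (adjusted p = 1e-05) at 240 h and -0.41 ± 0.12 (adjusted p = 0.0188) at 96 h. The 96 h call was lost without WM-8014 96 h culture 6 or 7 or WM-2474 96 h culture 5 or 7 (log2 fold change -0.44 to -0.31, adjusted p 0.0512 to 0.0872; range over the alternatives 0.000983 to 0.0872). Frzb, also called Sfrp3, had 8.68, 9.85 and 9.12 CPM with WM-8014 at 240 h, against 16.7, 17.3 and 17.4 CPM with WM-2474. After 96 h it had 11.3, 9.62 and 11.2 CPM with WM-8014, against 21.5, 16.5 and 18.7 CPM with WM-2474. Frzb was about as far down at both times, with a log2 fold change of -0.87 ± 0.095 (adjusted p = 1.84e-07) at 240 h and -0.81 ± 0.095 (adjusted p = 5.67e-06) at 96 h. Both Frzb calls held under every alternative tried.

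The most abundant Frizzled-related gene, Sfrp1, was called at neither time. It had 155, 126 and 165 CPM with WM-8014 at 240 h, against 142, 99 and 110 CPM with WM-2474, and 132, 127 and 155 CPM, against 159, 191 and 187 CPM, at 96 h. The 96 h groups did not overlap, the WM-8014 libraries being the lower ones. Groups were apart in either direction for 38.1% of all genes at that time. The test gave no call (log2 fold change 0.34, 95% interval -0.03 to 0.71, adjusted p = 0.128 at 240 h; -0.38, interval -0.75 to -0.01, adjusted p = 0.133 at 96 h). Without WM-2474 240 h culture 5 it passed at 240 h (log2 fold change 0.49, adjusted p = 0.0296; range over the alternatives 0.0296 to 0.329).

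Notum, a secreted enzyme that removes the lipid from Wnt proteins and is a known target of beta-catenin signalling, showed the largest fold change among the 33 genes at 240 h, at a low level. It had 2.02, 1.69 and 1.44 CPM with WM-8014 at 240 h (20, 49 and 25 reads), against 0.643, 0.267 and 0.149 CPM with WM-2474 (12, 6 and 3 reads). Every WM-8014 library was above every WM-2474 library, a 4.83-fold difference (log2 fold change 2.27 ± 0.36, 95% interval 1.52 to 3.02, adjusted p = 2.93e-05). At 96 h it had 1.29, 1.02 and 0.676 CPM with WM-8014, against 0.743, 1.01 and 0.676 CPM with WM-2474, overlapping groups (log2 fold change 0.38, 95% interval -0.35 to 1.11, adjusted p = 0.477).

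Dkk2 showed small differences with the compound. It had 165, 172 and 183 CPM with WM-8014 at 240 h, against 149, 156 and 167 CPM with WM-2474, and 134, 120 and 125 CPM, against 147, 133 and 141 CPM, at 96 h. The groups overlapped at both times. By culture number the WM-8014 library was higher in 3 of 3 cultures at 240 h and lower in 3 of 3 at 96 h. How many of all genes do so was not counted, and at 240 h same-numbered cultures were not clearly paired. The log2 fold change was 0.14 ± 0.050 (adjusted p = 0.0296) at 240 h and -0.15 ± 0.052 (adjusted p = 0.0408) at 96 h. The 240 h call was lost without WM-8014 240 h culture 6 or 7 or WM-2474 240 h culture 5 or 6 (0.10 to 0.15, adjusted p 0.0543 to 0.154; range over the alternatives 0.00938 to 0.154). The call at 96 h was lost without WM-8014 96 h culture 6 or 7, WM-2474 96 h culture 5 or 7, or WM-2474 240 h culture 6 (-0.15 to -0.12, adjusted p 0.0522 to 0.157; range 0.0196 to 0.157). Dkk3, a Dickkopf relative that does not share the action on Lrp5 and Lrp6, had 238, 251 and 275 CPM with WM-8014 at 240 h, against 277, 271 and 266 CPM with WM-2474. It was called at neither time, with 95% intervals of -0.25 to 0.07 at 240 h and -0.22 to 0.10 at 96 h. Dkk1, below the filter and so not tested, averaged 0.127 CPM with WM-8014 and 0.441 CPM with WM-2474 at 240 h (9 and 27 reads in 3 libraries each), and 0.227 CPM and 0.703 CPM at 96 h (10 and 58 reads).

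All 3 R-spondins measured had negative log2 fold changes at both times, and 1 was called lower at 240 h and 2 at 96 h, beside 21.4% and 11.8% of all genes called lower. Rspo2 had 11.4, 10.4 and 9.87 CPM with WM-8014 at 240 h, against 15.9, 11.4 and 13.2 CPM with WM-2474. The 96 h libraries held 23.3, 25.0 and 24.6 CPM with WM-8014, against 34.0, 37.4 and 39.1 CPM with WM-2474. The 96 h groups were far apart, while the 240 h groups met at 11.4 CPM to 3 digits, and the log2 fold change was -0.36 ± 0.10 (adjusted p = 0.00746) at 240 h and -0.61 ± 0.085 (adjusted p = 3.81e-05) at 96 h. Only without WM-2474 240 h culture 5, among the libraries left out in turn, was the 240 h call lost (log2 fold change -0.24, adjusted p = 0.0511; range over the alternatives 0.0008 to 0.0511). Rspo1 had 0.611, 0.205 and 0.406 CPM with WM-8014 at 96 h, against 1.30, 0.579 and 1.02 CPM with WM-2474, from 3 to 50 reads a library. Its groups overlapped, and the log2 fold change was -1.24 ± 0.40 (adjusted p = 0.0277). That call was lost without WM-8014 96 h culture 6 or 7 or WM-2474 96 h culture 5 (-1.24 to -0.93, adjusted p 0.0671 to 0.136; range over the alternatives 0.017 to 0.136). At 240 h Rspo1 had 0.303, 0.138 and 0.115 CPM with WM-8014, against 0.268, 0.445 and 0.248 CPM with WM-2474, and did not pass (log2 fold change -0.99, 95% interval -2.20 to 0.22). Rspo3 was called at neither time (95% interval -0.75 to 0.16 at 240 h and -0.69 to 0.08 at 96 h).

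Axin2, the scaffold protein that is itself a standard target and brake of beta-catenin signalling, lay on opposite sides at the 2 times. It had 5.15, 6.60 and 7.62 CPM with WM-8014 at 240 h, against 3.48, 4.18 and 3.12 CPM with WM-2474. At 96 h it had 2.17, 2.52 and 2.71 CPM with WM-8014, against 3.53, 3.69 and 3.44 CPM with WM-2474. The WM-8014 libraries were all above the WM-2474 libraries at 240 h and all below them at 96 h. The log2 fold change was 0.87 ± 0.15 (adjusted p = 6.02e-05) at 240 h and -0.51 ± 0.18 (adjusted p = 0.0461) at 96 h. The 240 h call held under every alternative. The 96 h call did not: it was lost without any 1 of the 6 libraries of 96 h or WM-8014 240 h culture 6 (-0.58 to -0.43, adjusted p 0.053 to 0.172; range over the alternatives 0.0355 to 0.363).

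Tcf7, one of the nuclear partners of beta-catenin, had 2.51, 2.73 and 2.91 CPM with WM-8014 at 96 h, against 3.99, 3.98 and 3.55 CPM with WM-2474, groups that did not overlap (log2 fold change -0.46 ± 0.16, adjusted p = 0.0395). The call was lost without any 1 of the 6 libraries of 96 h (-0.55 to -0.41, adjusted p 0.0575 to 0.137; range over the alternatives 0.03 to 0.228). At 240 h it had 3.83, 4.5 and 4.04 CPM with WM-8014, against 3.81, 4.22 and 3.32 CPM with WM-2474 (log2 fold change 0.15, 95% interval -0.15 to 0.44). Tcf7 overlaps Skp1, which had more reads. Lef1, the other such partner in the list, had 2 to 27 reads a library and was called at neither time (95% interval -0.72 to 0.51 at 240 h and -0.27 to 1.42 at 96 h).

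Whether the compound effect itself differed between 240 h and 96 h was tested as an interaction, the effect at 240 h minus that at 96 h. Of the 33 genes, 10 were called, 5 positive and 5 negative, against a background of 10.7% called (5.15% positive and 5.53% negative). The positive ones were Notum at 1.89 ± 0.52 (adjusted p = 0.0199), Axin2 at 1.38 ± 0.23 (adjusted p = 0.000416), Wnt11 at 1.09 ± 0.23 (adjusted p = 0.00324), Fzd7 at 0.48 ± 0.069 (adjusted p = 0.000145) and Dkk2 at 0.29 ± 0.073 (adjusted p = 0.012). The negative ones were Sfrp2 at -0.82 ± 0.21 (adjusted p = 0.0163), Wnt16 at -0.75 ± 0.15 (adjusted p = 0.0018), Fzd6 at -0.58 ± 0.091 (adjusted p = 0.000197), Fzd2 at -0.21 ± 0.064 (adjusted p = 0.0349) and Lrp6 at -0.20 ± 0.059 (adjusted p = 0.0329). For Axin2, Wnt11, Fzd7 and Dkk2 the estimate was positive at 240 h and negative at 96 h. Of these, Wnt11 at 240 h and Fzd7 at 96 h did not pass. The 96 h calls of Axin2 and Dkk2 were lost without certain single libraries, so opposite effects are not established. Fzd6 and Sfrp2 were lower with WM-8014 at both times and by more at 240 h. Wnt16 was lower at 240 h and not called at 96 h (-0.08, 95% interval -0.27 to 0.12). In each of the 10 genes all 3 cultures showed the direction of the interaction, as they also did in genes not called, such as Frzb and Wnt5a. The 10 were picked by a test on these same libraries, so this agreement is no separate evidence. The call of Fzd2 was lost without any 1 of 8 libraries (cultures 5 and 6 of WM-8014 and cultures 5 and 7 of WM-2474, at both times; adjusted p 0.0551 to 0.1). That of Lrp6 was lost without any 1 of 6 (WM-8014 240 h cultures 5 and 6, WM-8014 96 h culture 7, WM-2474 240 h culture 5, WM-2474 96 h cultures 5 and 7; adjusted p 0.0556 to 0.0851). That of Notum was lost without WM-8014 96 h culture 7 or WM-2474 240 h culture 6 or 7 (1.54 to 1.72, adjusted p 0.0529 to 0.0682), and that of Sfrp2 without WM-8014 240 h culture 6 (-0.77, adjusted p = 0.076). Over the alternatives the adjusted p ran between 0.00409 and 0.1 for Fzd2, 0.0188 and 0.0851 for Lrp6, 0.00311 and 0.249 for Notum, and 0.00244 and 0.206 for Sfrp2. Wnt5a, at -0.21 ± 0.069, narrowly failed (adjusted p = 0.0593) and passed without WM-8014 240 h culture 6, WM-8014 96 h culture 6 or WM-2474 240 h culture 5 (-0.26 to -0.25, adjusted p 0.011 to 0.0304; range over the alternatives 0.011 to 0.201). Fzd1 passed without WM-2474 96 h culture 5 (0.47, adjusted p = 0.00168; range 0.00168 to 0.872), Sfrp1 without WM-2474 240 h culture 5 (0.87, adjusted p = 0.0301; range 0.0204 to 0.457) and Wnt10b without WM-8014 96 h culture 6 (0.79, adjusted p = 0.00952; range 0.00952 to 0.386). Axin2, Dkk2, Fzd6, Fzd7 and Wnt16 were called under every alternative. Without cultures 6 and 7 of the 96 h WM-2474 group together those 5 were the ones called, while Notum (1.85), Wnt11 (0.96), Sfrp2 (-0.55), Lrp6 (-0.27) and Fzd2 (-0.27) were not. Frzb, by contrast, had an interaction of -0.06 with a 95% interval of -0.34 to 0.22.

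**Figure D3:**
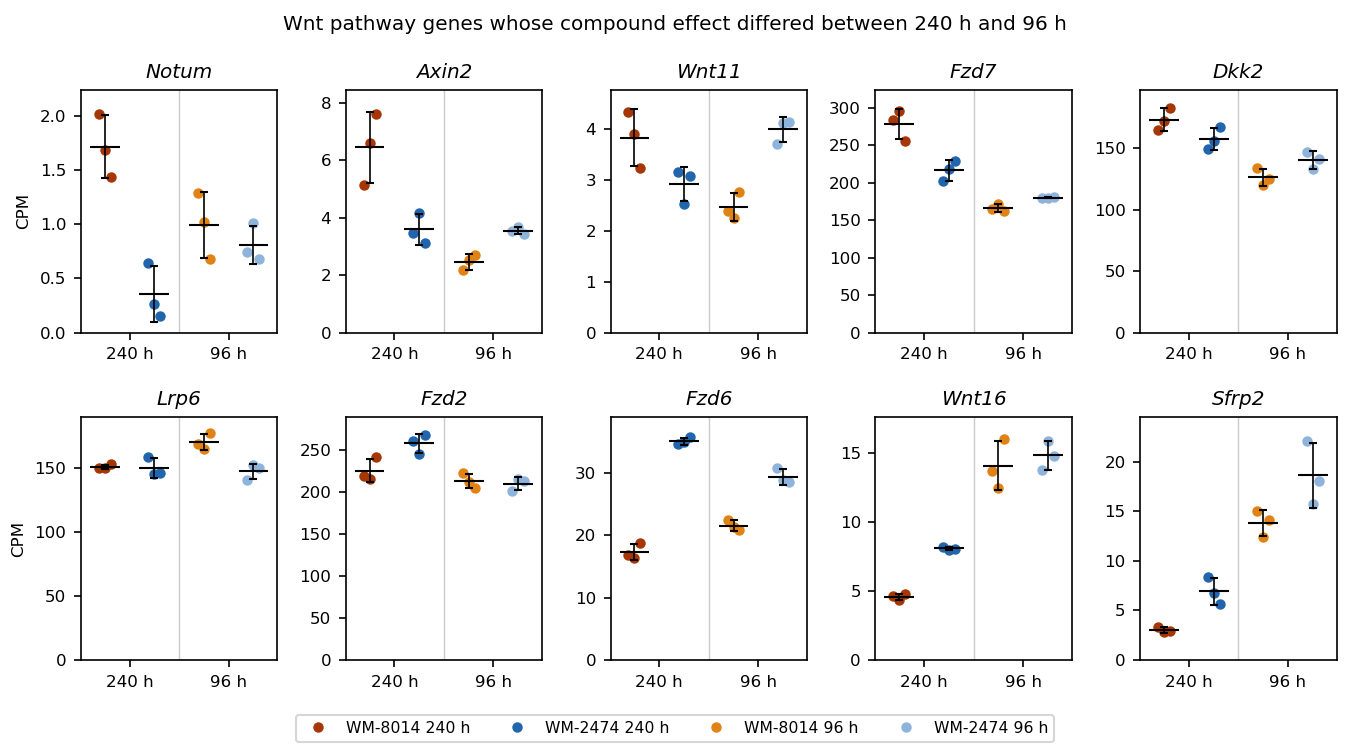
CPM in each library for the 10 genes whose compound effect differed between the 2 times; points are libraries, horizontal bars are means and vertical bars are 1 SD over 3 libraries. Axin2 in WM-8014 cultures lies above WM-2474 at 240 h and below it at 96 h, and Fzd6 lies below it at both times.

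Upstream sequences are shown for 4 of these genes, picked as a pair with a positive interaction, Axin2 and Fzd7, and a pair with a negative one, Wnt16 and Sfrp2, whose windows are in the RefSeq promoter table. Each is the 250 bases before the RefSeq start of the gene on build GRCm38.p6, written 5′ to 3′ on the gene's strand. Capitals mark any match to the 6-base cores CTTTGA or CTTTGT, on either strand, which are contained in sites bound by Lef and Tcf factors. No match overlaps another in the windows shown.
Axin2, chr11:108920099-108920348 (+): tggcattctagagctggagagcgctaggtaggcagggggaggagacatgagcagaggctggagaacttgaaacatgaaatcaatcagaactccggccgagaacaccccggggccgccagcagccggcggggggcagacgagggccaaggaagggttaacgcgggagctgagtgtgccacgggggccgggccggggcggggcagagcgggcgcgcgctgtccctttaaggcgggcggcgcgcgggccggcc
Fzd7, chr1:59481897-59482146 (+): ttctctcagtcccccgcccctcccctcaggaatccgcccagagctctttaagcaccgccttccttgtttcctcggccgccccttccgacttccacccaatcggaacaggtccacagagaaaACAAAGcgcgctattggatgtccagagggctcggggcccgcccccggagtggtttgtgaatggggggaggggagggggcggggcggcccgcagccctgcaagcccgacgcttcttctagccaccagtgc
Wnt16, chr6:22287977-22288226 (+): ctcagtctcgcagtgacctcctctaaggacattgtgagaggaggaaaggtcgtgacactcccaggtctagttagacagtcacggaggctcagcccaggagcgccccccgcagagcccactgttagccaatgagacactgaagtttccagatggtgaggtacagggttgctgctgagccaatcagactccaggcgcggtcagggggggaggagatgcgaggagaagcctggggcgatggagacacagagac
Sfrp2, chr3:83766071-83766320 (+): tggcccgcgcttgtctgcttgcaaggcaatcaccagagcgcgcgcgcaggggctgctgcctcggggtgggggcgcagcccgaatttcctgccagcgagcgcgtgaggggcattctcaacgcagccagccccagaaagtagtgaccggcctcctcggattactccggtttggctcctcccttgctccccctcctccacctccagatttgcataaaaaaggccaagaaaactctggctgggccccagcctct
Fzd7 holds 1 match, read ACAAAG on the printed strand, and the windows of Axin2, Wnt16 and Sfrp2 hold 0. Over all 32851 RefSeq promoter windows of this length 27.6% held a match, beside 9 of the 39 windows (23.1%) of the 32 Wnt pathway genes found in the table. A match here is a run of letters and not a shown binding site, and a window without one says nothing of sites elsewhere. The genes themselves lie at 108917828 to 108950783 on chromosome 11 (Axin2), 59482147 to 59486955 on chromosome 1 (Fzd7), 22288178 to 22298522 on chromosome 6 (Wnt16) and 83765750 to 83774314 on chromosome 3 (Sfrp2). The Axin2, Sfrp2 and Wnt16 windows therefore lie partly or wholly inside the annotated span of their gene, which also covers other transcript starts.

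Between the 2 culture times, 22 of 33 genes were called with WM-8014 (13 higher and 9 lower at 240 h), against a background of 49.7% of all genes (24.8% higher and 25.0% lower). With WM-2474, 24 were called (12 higher and 12 lower), against 38.9% (19.8% higher and 19.1% lower). The lowest and highest libraries of the 2 times did not overlap for 23 genes with WM-8014 (56.5% of all genes) and for 23 with WM-2474 (49.4% of all genes). The 2 time comparisons have no library in common, but each shares its libraries with the compound comparisons. Without cultures 6 and 7 of the 96 h WM-2474 group together, the count with WM-2474 was 15, comprising 8 higher and 7 lower. The 9 calls lost were those of Dkk2 (log2 fold change 0.10 without both), Fzd1 (-0.21), Fzd6 (0.19), Fzd8 (0.28), Notum (-1.10), Sfrp1 (-0.45), Wnt2 (0.61), Wnt5b (-0.15) and Wnt11 (-0.35). Higher at 240 h with both compounds were 9 genes (Dkk2, Dkk3, Fzd7, Fzd8, Lrp5, Wnt2, Wnt4, Wnt5a and Wnt9a), and lower with both were 5 (Rspo2, Rspo3, Sfrp2, Wnt10b and Wnt16), beside 15.9% and 14.5% of all genes. Of the 9, Dkk2, Fzd8 and Wnt2 were thus not called with WM-2474 without those libraries, while the 5 lower ones were. With WM-8014, the calls of Dkk3 (without WM-8014 240 h culture 6 or 7 or 96 h culture 5 or 7), Wnt5a (240 h or 96 h culture 6), Fzd5 and Sfrp4 (each without 240 h culture 6 or 96 h culture 5) were lost, with adjusted p between 0.0613 and 0.149. With WM-2474, the calls of Dkk2 (without WM-2474 240 h culture 7 or 96 h culture 6), Dkk3 (240 h culture 5 or 6 or 96 h culture 7), Sfrp1 (240 h or 96 h culture 7), Wnt10a (240 h culture 7) and Wnt5b (240 h or 96 h culture 6 or 7) were lost, with adjusted p between 0.0516 and 0.172. Fzd5 passed with WM-2474 without WM-2474 240 h culture 7 or 96 h culture 6, or WM-8014 240 h culture 6 or 7 or 96 h culture 5 (0.19 to 0.23, adjusted p 0.0315 to 0.0465; range over the alternatives 0.0315 to 0.187). Fzd1 passed with WM-8014 without WM-2474 96 h culture 5 (-0.16, adjusted p = 0.0246; range over the alternatives 0.0246 to 0.484).

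Wnt4, a ligand best known from kidney and gonad development, and Wnt9a were higher at 240 h with either compound. Wnt4 had 35.5, 39.9 and 30.8 CPM at 240 h with WM-8014, against 13.4, 15.0 and 14.7 CPM at 96 h. With WM-2474 it had 28.8, 37.5 and 32.5 CPM at 240 h, against 15.9, 16.1 and 16.4 CPM at 96 h. The times did not overlap under either compound, and the log2 fold change was 1.31 ± 0.11 (adjusted p = 4.54e-08) with WM-8014 and 1.03 ± 0.10 (adjusted p = 6.95e-07) with WM-2474. Wnt9a rose by 1.14 ± 0.13 (adjusted p = 7.59e-07) and 1.31 ± 0.12 (adjusted p = 5.81e-08) on the log2 scale in the same order of compounds. Wnt16 fell to 4.36 to 4.79 CPM at 240 h with WM-8014, against 12.5 to 16.0 CPM at 96 h, and to 8.0 to 8.2 CPM at 240 h with WM-2474, against 13.8 to 15.9 CPM at 96 h. The log2 fold changes of Wnt16 were -1.63 ± 0.11 and -0.88 ± 0.095, and the interaction reported for it tests the difference between them.

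All 3 R-spondins had lower levels at the later time. Rspo2 had a log2 fold change over time of -1.22 ± 0.10 (adjusted p = 2.03e-09) with WM-8014 and -1.47 ± 0.088 (adjusted p = 3.57e-11) with WM-2474. Rspo3 had 1.61, 2.66 and 2.02 CPM at 240 h with WM-8014, against 5.43, 3.75 and 3.38 CPM at 96 h, and 3.54, 2.31 and 2.48 CPM at 240 h with WM-2474, against 5.48, 4.63 and 5.33 CPM at 96 h. The times were apart under both compounds (log2 fold change -0.90 ± 0.22, adjusted p = 0.00152 with WM-8014; -0.91 ± 0.19, adjusted p = 0.000553 with WM-2474). Rspo1 fell by 1.56 ± 0.38 on the log2 scale with WM-2474 (adjusted p = 0.00237), while with WM-8014 it did not pass (-1.31 ± 0.59, adjusted p = 0.0727), except without WM-8014 96 h culture 6 (-1.62, adjusted p = 0.0352; range over the alternatives 0.0352 to 0.313). Sfrp2 fell by 2.23 ± 0.16 with WM-8014 (adjusted p = 7.47e-10) and by 1.41 ± 0.13 with WM-2474 (adjusted p = 3.84e-08). Wnt10b, a ligand that acts through beta-catenin, fell by 0.86 ± 0.16 (adjusted p = 0.000154) with WM-8014 and by 1.40 ± 0.16 (adjusted p = 4.16e-07) with WM-2474.

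Some genes moved over time under 1 compound or in opposite directions. Wnt11 was higher at 240 h with WM-8014 (log2 fold change 0.61 ± 0.17, adjusted p = 0.00527) and lower at 240 h with WM-2474 (-0.47 ± 0.15, adjusted p = 0.0167). The WM-2474 call for Wnt11 was lost without WM-2474 240 h culture 6 or 96 h culture 7 (-0.44 to -0.38, adjusted p 0.0929 to 0.0981; range over the alternatives 0.0134 to 0.415). Fzd6 was lower at 240 h with WM-8014 (-0.31 ± 0.070, adjusted p = 0.000732) and higher with WM-2474 (0.27 ± 0.059, adjusted p = 0.00098), the WM-2474 call being lost without cultures 6 and 7 of the 96 h WM-2474 group together (0.19, adjusted p = 0.192; range over the alternatives 0.000416 to 0.192). Axin2 rose with WM-8014 (1.42 ± 0.17, adjusted p = 3.82e-07), and with WM-2474 its log2 fold change was 0.04 with a 95% interval of -0.29 to 0.37. Notum fell with WM-2474 (-1.14 ± 0.41, adjusted p = 0.0313), a call lost without WM-2474 96 h culture 6 or 240 h culture 6 or 7 (-1.0 to -0.79, adjusted p 0.0904 to 0.161; range over the alternatives 0.00361 to 0.336). With WM-8014 Notum had a log2 fold change of 0.75 ± 0.32, which did not pass (adjusted p = 0.0529). It passed without WM-8014 240 h culture 7, WM-8014 96 h culture 5 or WM-2474 240 h culture 5 or 7 (0.75 to 0.98, adjusted p 0.0312 to 0.0475; range 0.0209 to 0.787). Lef1 rose with WM-2474 (1.35 ± 0.34, adjusted p = 0.00296), at 0.965, 1.11 and 0.941 CPM at 240 h against 0.186, 0.506 and 0.410 CPM at 96 h. Lrp6 and Fzd4 fell with WM-8014, by 0.17 ± 0.042 (adjusted p = 0.00148) and 0.67 ± 0.19 (adjusted p = 0.00476). Frzb, Fzd3 and Wnt2b were called over time with neither compound, and Fzd3 was the only gene of the 33 called in none of the 5 comparisons.

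**Figure D4:**
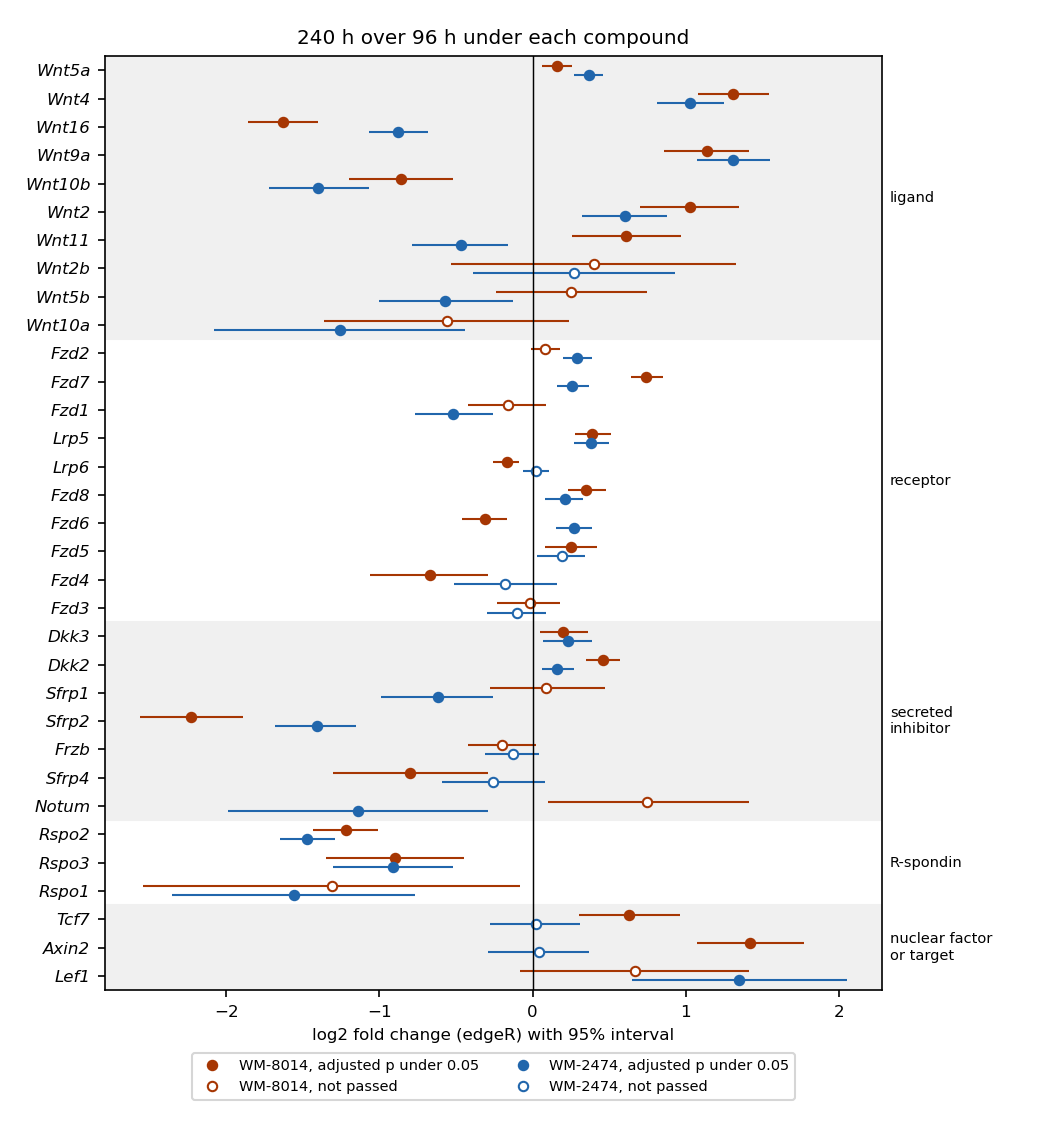
Log2 fold change of 240 h over 96 h for each of the 33 genes, with WM-8014 and with WM-2474, with 95% intervals from edgeR; filled points passed an adjusted p of 0.05. Wnt4 and Wnt9a lie right of 0 and Sfrp2, Rspo2, Wnt10b and Wnt16 lie left of 0 under both compounds, and Fzd6 and Wnt11 change sides between them.

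The rest of the pathway was read from lists of 81 other genes, of which 73 were measured. At 240 h, 16 of the 73 were higher and 22 lower with WM-8014, beside the background of 21.2% and 21.4% given for that time. At 96 h, 5 were higher and 17 lower, beside 10.9% and 11.8%. The 96 h counts were 3 higher and 10 lower without WM-2474 96 h culture 7, and 2 higher and 4 lower without cultures 6 and 7 of the 96 h WM-2474 group together (Bcl9l and Gpc6 higher; Apcdd1, Cd44, Cthrc1 and Tle3 lower). A 96 h value given for any other gene of these lists therefore missed the threshold without both. Among those named, the log2 fold change without both was no smaller in size for Bambi (-0.45), Prickle2 (0.33), Vangl2 (-0.30), Adgra2 (-0.23) and Twist1 (-0.22) than with all libraries, and it was smaller for Celsr3 (0.71), Jag1 (-0.41), Lrp4 (-0.39), Daam2 (-0.37), Nkd2 (-0.24), Btrc (0.15), Gpc4 (-0.14) and Ctnnb1 (-0.07). Wls, which carries Wnt proteins to the cell surface, was higher at 240 h (log2 fold change 0.23 ± 0.041, adjusted p = 0.000108) and not at 96 h (0.02 ± 0.042, adjusted p = 0.717). Porcn, the enzyme that attaches the lipid, passed at neither time (0.13 ± 0.12, adjusted p = 0.393 at 240 h; -0.34 ± 0.13, adjusted p = 0.0649 at 96 h). Ctnnb1, which encodes beta-catenin, had log2 fold changes of -0.07 ± 0.032 (adjusted p = 0.0669) at 240 h and -0.10 ± 0.032 (adjusted p = 0.0254) at 96 h. The call at 96 h of Ctnnb1 was lost without WM-8014 96 h culture 5 or 6 or WM-2474 96 h culture 6 or 7 (-0.11 to -0.08, adjusted p 0.0519 to 0.146; range over the alternatives 0.0083 to 0.455). Porcn passed at 96 h without WM-8014 96 h culture 7 (-0.48, adjusted p = 0.0196; range 0.0196 to 0.455).

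Among the 14 measured genes of a list of beta-catenin targets, 1 was higher and 6 lower at 240 h, and 0 were higher and 5 lower at 96 h. The background of 42.6% called at 240 h and 22.8% at 96 h applies to this and the following lists, and 7 of 14 at 240 h is near it. Ccnd1, a cyclin of the G1 phase, was the higher one at 240 h (0.36 ± 0.049, adjusted p = 1.06e-05). Jag1, a Notch ligand, was lower at 240 h (-1.14 ± 0.105, adjusted p = 1.4e-05) and at 96 h (-0.62 ± 0.125, adjusted p = 0.00651). Cd44, an adhesion receptor, was lower at 96 h (-0.23 ± 0.059, adjusted p = 0.0126), a call lost without WM-8014 96 h culture 5 or 7 (-0.23 to -0.22, adjusted p 0.0538 to 0.0547; range over the alternatives 0.000582 to 0.0547). Bambi, Twist1 and Apcdd1 (a membrane protein that restrains Wnt signals) were lower at both times on the log2 scale, Bambi by 0.45 ± 0.103 at 240 h and 0.34 ± 0.102 at 96 h, Twist1 by 0.18 ± 0.049 and 0.19 ± 0.051, and Apcdd1 by 1.04 ± 0.14 and 0.65 ± 0.15. The 96 h calls were lost for Bambi without WM-8014 96 h culture 5 or 7 or WM-2474 96 h culture 5 (-0.35 to -0.31, adjusted p 0.0525 to 0.0613), for Twist1 without WM-8014 96 h culture 7 (-0.14, adjusted p = 0.0646) and for Apcdd1 without WM-2474 96 h culture 7 (-0.58, adjusted p = 0.0603). Over the alternatives the adjusted p at 96 h ran between 0.00417 and 0.112 for Bambi, 0.00169 and 0.109 for Twist1, and 1.68e-05 and 0.0603 for Apcdd1. The median log2 fold change of the 14 was 0.03 at 240 h and -0.24 at 96 h, and several of them are known to respond to other pathways too.

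The co-receptor list held 17 measured genes, with 2 higher and 7 lower at 240 h and 1 higher and 6 lower at 96 h. The glypican Gpc6 was higher at both times (0.72 ± 0.062 at 240 h; 0.55 ± 0.064 at 96 h). Adgra2, which helps cells respond to specific Wnt ligands in brain vessels, was lower at both (-0.62 ± 0.048 at 240 h; -0.21 ± 0.048 at 96 h), as was Lrp4 (-0.99 ± 0.14 at 240 h and -0.70 ± 0.13 at 96 h). Gpc4, another glypican, was lower at 96 h (-0.19 ± 0.038). Lgr4, a receptor of R-spondins, was lower at 240 h (-0.30 ± 0.043, adjusted p = 7.27e-06). Lgr5, another such receptor, also stands in the list of beta-catenin targets. It was at 29.0 to 66.7 CPM with WM-8014 and 78.3 to 149 CPM with WM-2474 at 240 h. In the same order it was at 29.9 to 47.8 CPM and 61.8 to 88.4 CPM at 96 h. The glypican Gpc3 was at 1.73 to 4.44 CPM with WM-8014 and 6.8 to 13.1 CPM with WM-2474 at 240 h. Its 96 h levels were 8.46 to 10.1 CPM and 15.5 to 18.4 CPM. Lgr5 and Gpc3 fall outside the naming rule and were added after their values were seen, so only levels are given. Among 20 genes of the destruction complex and signal relay, 6 were higher and 4 lower at 240 h, and 1 was higher and 2 lower at 96 h. Nkd2, a feedback inhibitor that binds Dishevelled, was higher at 240 h (0.48 ± 0.084, adjusted p = 9.64e-05) and lower at 96 h (-0.46 ± 0.10, adjusted p = 0.00307), and Dact1, another Dishevelled-binding protein, was lower at 240 h (-1.28 ± 0.11, adjusted p = 4.65e-09). Tnks and Tnks2, which mark Axin proteins for breakdown, were both lower at 240 h (-0.20 ± 0.038 and -0.20 ± 0.037). Btrc, a ubiquitin ligase subunit that acts on beta-catenin, was higher at 240 h (0.16 ± 0.062) and at 96 h (0.19 ± 0.063), calls lost without any 1 of 5 libraries of 240 h (all but WM-2474 culture 5; adjusted p 0.0559 to 0.111) and without WM-8014 96 h culture 5 or 7 or WM-2474 96 h culture 6 or 7 (adjusted p 0.0797 to 0.164; range over the alternatives 0.0235 to 0.438 at 240 h and 0.00886 to 0.43 at 96 h). The 12 nuclear genes had 1 higher and 2 lower at 240 h and 1 higher and 1 lower at 96 h. The co-repressor Tle3 was lower at both times (-0.20 ± 0.044 at 240 h and -0.20 ± 0.045 at 96 h), Tcf7l1 lower and Tle1 higher at 240 h (-0.27 ± 0.060 and 0.23 ± 0.061), and Bcl9l, a beta-catenin cofactor, higher at 96 h (0.14 ± 0.039), a call lost without culture 5 of WM-8014 or WM-2474 at 96 h (0.10 to 0.13, adjusted p 0.0522 to 0.0919; range over the alternatives 0.00921 to 0.0919). The 9 genes of the planar polarity branch had 3 higher and 3 lower at 240 h and 2 higher and 2 lower at 96 h, with Vangl2 lower at both (-0.70 ± 0.089 at 240 h; -0.28 ± 0.089 at 96 h) and Prickle2 higher at both (0.23 ± 0.060 and 0.29 ± 0.063). The 96 h call of Vangl2 was lost without WM-8014 96 h culture 6 or 7 or WM-2474 96 h culture 6 or 7 (-0.31 to -0.24, adjusted p 0.0552 to 0.0973; range over the alternatives 0.0147 to 0.244), and that of Nkd2 without WM-2474 96 h culture 7 (-0.31, adjusted p = 0.0749; range 0.000209 to 0.4). Daam2 was lower at both times (-0.54 ± 0.14 and -0.49 ± 0.14) and Celsr3 higher at both (0.63 ± 0.20 and 0.73 ± 0.21). Daam2 lost its 96 h call without any 1 library of 96 h but WM-2474 culture 5 (adjusted p 0.0509 to 0.119; range over the alternatives 0.000101 to 0.383). Celsr3 lost its 240 h call without WM-8014 culture 5 or 6 or WM-2474 culture 6 (adjusted p 0.0531 to 0.0693; range over the alternatives 0.00343 to 0.0693) and its 96 h call without WM-8014 culture 5 or WM-2474 culture 7 (adjusted p 0.0666 to 0.11; range 0.0108 to 0.305). Of 4 other secreted proteins measured, Cthrc1 was lower at both times (-0.46 ± 0.042 at 240 h and -0.31 ± 0.044 at 96 h), and Igfbp4, which can hold back Wnt signals as well as bind insulin-like growth factors, was higher at 240 h (1.44 ± 0.15, adjusted p = 7.85e-05).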

How the data were processed

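RNA of 12 fibroblast cultures was sequenced with a stranded mRNA kit, per the labels' protocols. The authors deposited raw counts of reads per gene with Entrez identifiers and gene lengths; featureCounts and build mm10 are named in the submitters' processing notes, and the strand setting of the counting is not given in the sources used here. Libraries held 10147466 to 45903190 reads. Symbols came from RefSeq (GRCm38.p6), which matched 25275 identifiers; the other 1904 held 1.04 to 1.62% of reads. Gene and promoter coordinates are those of RefSeq on that build.

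Counts were filtered with filterByExpr (14136 of 27179 genes kept, at least 99.93% of reads), scaled by TMM (factors 0.928 to 1.06) and tested with edgeR 4.0.16 (robust quasi-likelihood F-test, R 4.3.3, limma 3.58.1) in 1 fit over the 4 groups, with Benjamini-Hochberg adjustment over all genes and a threshold of 0.05. The biological coefficient of variation was 4.64%. CPM are counts over the scaled library size, and levels between genes are CPM per kilobase of deposited gene length. The SE was computed from the fold change and the F statistic. The procedure was tested on simulated data with a common spread for all genes and no effect of culture. That simulation does not cover shared cultures, genes of larger spread or the smallest fold changes called here. P-values measure the spread between cultures; intervals of counts cover counting error only.

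Groups share culture numbers. Deviations of same-numbered cultures correlated at 0.141, 0.15 and 0.158 between the compounds at 96 h, and those of cultures with different numbers at -0.104 to -0.0458. Between the compounds at 240 h, same-numbered cultures correlated at 0.0636, 0.243 and 0.0475. Over every pair of groups, including those of different times, the same-numbered values were all positive, from 0.0289 to 0.243. Those of different numbers ran between -0.182 and 0.0967, most of them negative. Libraries thus tended to go with their culture number, but the correlations are weak and the 2 ranges overlap. How far the numbers pair the samples is not settled by them. The main fit uses no pairing, and a culture block is among the alternatives. Replicates of a group differed by more than counting noise (chi-square per degree of freedom 2.1 to 7.13).

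The genes, the other pathway lists and the markers were chosen with earlier results of these data known. Genes named outside the 49 are those that passed with a mean log2 CPM of at least 1, up to the 4 smallest p per list and compound comparison, plus Ctnnb1, Porcn and Wls. Levels of Lgr5 and Gpc3 were added after they were seen. Alternatives were DESeq2 1.42.0, its size factors, other filters (none, or 1 CPM in 3 libraries), a culture block, only the groups compared, thinning to the smallest library, and leaving out each library, or cultures 6 and 7 of the 96 h WM-2474 group together.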

Additional observations from a re-analysis of the deposited data

Results flagged for a closer look

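For 10 of the 33 Wnt pathway genes and 10 other named pathway genes, the compound effect differed between 240 h and 96 h in a test of the difference itself (edgeR's interaction term, effect at 240 h minus effect at 96 h, log2 scale, adjusted p over all genes). The background was 10.7% of all genes called. The 10 other genes are among 7 positive and 4 negative of the 73 other pathway genes measured. They were mostly named by their p in the compound comparisons, which use the same libraries. Positive differences were found for Notum (1.89), Axin2 (1.38), Igfbp4 (1.29), Wnt11 (1.09), Nkd2 (0.93), Fzd7 (0.48), Ccnd1 (0.43), Cd44 (0.30), Dkk2 (0.29), Tle1 (0.29) and Wls (0.21). Negative differences were found for Dact1 (-0.96), Sfrp2 (-0.82), Wnt16 (-0.75), Fzd6 (-0.58), Adgra2 (-0.41), Vangl2 (-0.41), Lgr4 (-0.30), Fzd2 (-0.21) and Lrp6 (-0.20). Among the named genes outside the 33, Nkd2 (adjusted p = 8.22e-05), Dact1 (0.000356), Ccnd1 (0.000545), Adgra2 (0.000596) and Lgr4 (0.00243) were called under every alternative. Igfbp4 (adjusted p = 0.00652) missed the threshold without cultures 6 and 7 of the 96 h WM-2474 group together (1.21, adjusted p = 0.0756). Wls (adjusted p = 0.0262), Tle1 (0.0298), Cd44 (0.0344) and Vangl2 (0.0391) each lost the call without any 1 of 7 to 10 libraries of the 12, with adjusted p over all alternatives of 0.00713 to 0.319, 0.00204 to 0.171, 0.00496 to 0.109 and 0.00992 to 0.248 in that order. All groups held 3 libraries, too few to look for single outlying samples.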

How the results depend on the processing

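Of the calls among the 33 genes, 12 of 17 at 240 h, 5 of 14 at 96 h and 5 of 10 for the interaction held under every alternative that could be fitted. The count at 96 h was 14; it was 7 without cultures 6 and 7 of the 96 h WM-2474 group together, 8 after all libraries were thinned to the smallest total, and 10 with DESeq2, and it ran between 7 and 15 when 1 library was left out. The interaction count of 10 was 5 without those 2 libraries, 7 after thinning and 8 with DESeq2, and ran between 8 and 11 with 1 library left out. The count over time with WM-2474 was 24, and 15 without those 2 libraries; with 1 library left out it ran between 19 and 26, that with WM-8014 between 18 and 23, and that at 240 h between 14 and 18. The cause of these changes was not tested, apart from the fewer samples or reads that the alternatives themselves bring. In 1 case a value called under some setting changed sign: Fzd1 at 96 h ran between -0.06 (without WM-2474 96 h culture 5) and 0.14 (without WM-2474 96 h culture 6) with 1 library left out (at -0.06, adjusted p = 0.514; range over the alternatives 0.0221 to 0.913). A further 63 results of these genes were called under no setting, and 22 of them had another sign under at least 1 alternative. With culture as a replicate block, the counts were 17 at 240 h, 15 at 96 h, 11 for the interaction, 23 over time with WM-8014 and 25 over time with WM-2474. At 96 h, where same-numbered cultures correlated weakly, the block changed only the call of Wnt5b. Where a gene has few reads, as Notum, Rspo1, Lef1 and Wnt10a have, depth limits what can be called, and the 16 genes below the filter cannot be compared.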
